A study of Mus musculus with 10 samples.

Results

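Genes of bicarbonate transport and pH control were followed in ameloblasts and stratum intermedium of claudin-10 knockout (KO) and wild-type (WT) mice. The group comprised 8 genes chosen by name for their role: Slc4a4, Slc4a2, Slc26a1, Slc26a6, Slc26a7, Car2, Car6 and Cftr. The choice was made with earlier results of these data known. Of these, 7 were listed in both expression tables, and 1, Car6, was listed in neither. The tables held 17305 genes in all, 16292 for ameloblasts and 16638 for stratum intermedium. Both layers had been cut by laser from frozen hemi-mandible sections, and each had 3 KO and 2 WT libraries. Claudin-10 is a tight junction protein that forms paracellular ion channels. The KO libraries came from mice labelled as lacking it and the WT libraries from mice labelled as carrying it. The age, sex and strain of the animals, the deleted part of Cldn10 and whether the loss was confined to some tissues were not stated in the labels. Libraries are named below by the prefix of their library name, KO1, KO3, KO9, WT5 and WT10. Each prefix occurs once per layer and was taken as 1 mouse, which the labels do not say. If they were not separate animals, the spread behind every p-value may be technical.

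Growing enamel crystals release acid, which the enamel organ has to neutralise. Carbonic anhydrases turn carbon dioxide and water into bicarbonate and protons. Cotransporters of the SLC4 family bring bicarbonate into the cell across the basolateral membrane, and exchangers of the SLC4 and SLC26 families trade chloride for bicarbonate. The channel Cftr lets chloride and bicarbonate leave the cell. In ameloblasts these proteins are best known from the maturation stage, when the matrix is removed and the crystals thicken. In humans, loss of SLC4A4 causes renal tubular acidosis with enamel defects, and mice without Cftr have poorly mineralised enamel.

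The 3 genes whose KO minus WT difference varied between the layers with the smallest unadjusted p-values were Cftr, Slc4a4 and Slc26a1, and the 250 bases before an annotated start of each are shown for orientation. The sequences are from RefSeq (GRCm38.p6). Windows that hold annotated exon bases were left out, so for Slc4a4 and Slc26a1, which have 2 starts each, the downstream one is shown. Capitals mark exact matches on either strand. The motif searched as a TATA box was TATAAA, and the one searched as an E-box was CACGTG. The GC box was searched as GGGCGG, and the CCAAT box by the letters of its name.
Cftr, chr6:18170437-18170686, plus strand: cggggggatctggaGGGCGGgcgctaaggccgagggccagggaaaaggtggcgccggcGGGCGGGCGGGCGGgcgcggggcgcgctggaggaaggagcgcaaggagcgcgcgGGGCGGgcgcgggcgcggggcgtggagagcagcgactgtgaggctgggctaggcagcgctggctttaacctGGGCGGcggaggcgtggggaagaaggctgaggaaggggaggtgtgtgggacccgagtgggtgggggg
Slc4a4, chr5:89027716-89027965, plus strand: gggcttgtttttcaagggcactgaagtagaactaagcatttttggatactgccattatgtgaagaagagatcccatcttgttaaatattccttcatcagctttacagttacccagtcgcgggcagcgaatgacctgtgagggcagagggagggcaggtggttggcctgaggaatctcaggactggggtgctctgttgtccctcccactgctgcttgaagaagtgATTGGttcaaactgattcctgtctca
Slc26a1, chr5:108674797-108675046, minus strand: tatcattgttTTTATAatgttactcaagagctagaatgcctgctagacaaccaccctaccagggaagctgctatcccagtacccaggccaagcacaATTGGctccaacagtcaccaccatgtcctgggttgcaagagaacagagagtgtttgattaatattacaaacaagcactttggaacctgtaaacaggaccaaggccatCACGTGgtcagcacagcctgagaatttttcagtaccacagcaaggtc
The Cftr window was 76.4% G or C, held 30 CpG pairs and 6 GC boxes, some of which overlap each other, and ended just before the first base of the gene. The Slc4a4 window was 48.8% G or C, held 3 CpG pairs and 1 CCAAT match, and lay before a start 140706 bases downstream of the gene's other RefSeq start. The Slc26a1 window was 46.0% G or C and held 1 TATA match, 1 CCAAT match and 1 E-box match. Over 32851 promoter windows of this length, a TATA match was found in 12.4%, a CCAAT match in 33.9%, an E-box match in 6.02% and a GC box match in 32.7%. The expression values are sums over a whole gene, so transcripts from the 2 starts of Slc4a4, or of Slc26a1, cannot be told apart. The set of promoter sequences used here held entries for 6 of the 8 genes, and none for Slc26a7 and Car2.

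Facts of the whole series bear on what follows. Values were normalized counts, which the authors scaled separately in each table, so levels were not tested between layers. Every KO library had less Cldn10 than both WT libraries of its layer, at 280, 408 and 149 in KO1, KO3 and KO9 ameloblasts against 752 and 600.1 in WT5 and WT10. In stratum intermedium it stood at 1003, 387 and 465 in KO1, KO3 and KO9 against 2365 and 7257 in WT5 and WT10. Neither difference passed adjustment over all genes (log2 -1.38 and -2.87, adjusted p = 0.989 and 1.0 in limma). Xist exceeded the sum of 4 Y-linked genes in both libraries of KO1 and KO3, and the reverse held in KO9, WT5 and WT10, so the sexes were not balanced between genotypes. WT10 had the most genes at 0 in each table, 706 and 854, against 33 and 36 in WT5. Markers of secretory ameloblasts (Amelx, Ambn, Enam and Mmp20) made up 2.17% to 9.11% of KO and 2.65% to 4.67% of WT ameloblast libraries, and 0.119% to 0.768% of KO and 0.474% to 0.938% of WT stratum intermedium libraries. Maturation-stage markers (7 of 8 listed in ameloblasts) made up 0.0239% to 0.0348% of KO and 0.0175% to 0.0181% of WT ameloblast libraries, and the maturation protease Klk4 stood at 79.0, 52.8 and 0 in KO1, KO3 and KO9 and at 43.7 and 11.3 in WT5 and WT10. Odontoblast and bone markers made up 3.59% to 5.45% of KO and 4.21% to 6.56% of WT ameloblast libraries, and 3.95% to 4.53% of KO and 2.57% to 7.41% of WT stratum intermedium libraries.

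No gene of the group passed correction in any of the 3 tests made. These were KO against WT in ameloblasts, the same in stratum intermedium, and whether that difference varied between the layers. Each was made with limma on log2(normalized count + 1), with Benjamini-Hochberg adjustment over all genes tested. In ameloblasts 0 of 16212 genes had an adjusted p under 0.05, which is 0% of those tested, and 498 had an unadjusted p under 0.05. In stratum intermedium these numbers were 0 of 16543 (0%) and 340, and for the difference between layers 0 of 15567 (0%) and 802. In ameloblasts 6 of the 7 listed genes had a mean log2 value higher in KO, with a median difference of 0.46, where 53% of all genes were higher and their median was 0.04. In stratum intermedium 1 of the 7 was higher in KO and the median was -0.29, where 51.9% of all genes were higher and their median was 0.02. Both counts depended on single libraries. They were 4 of 7 in ameloblasts without WT10 and 3 of 7 in stratum intermedium without either WT10 or KO3. For the difference between layers, 6 of the 7 values were above 0 (4 without prefix WT10), where 50.4% of all genes were. In that test 3 of the 7 genes had an unadjusted limma p under 0.05, all with a positive sign, where 5.15% of all genes did, 3.12% with a positive and 2.03% with a negative sign. None of those 3 passed adjustment. That count was 0 without prefix KO9, and 1 with array weights or with sex as a covariate. Because the genes were chosen with earlier results of these data known, the shares over all genes are not an independent yardstick for these counts.

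**Figure D1:**
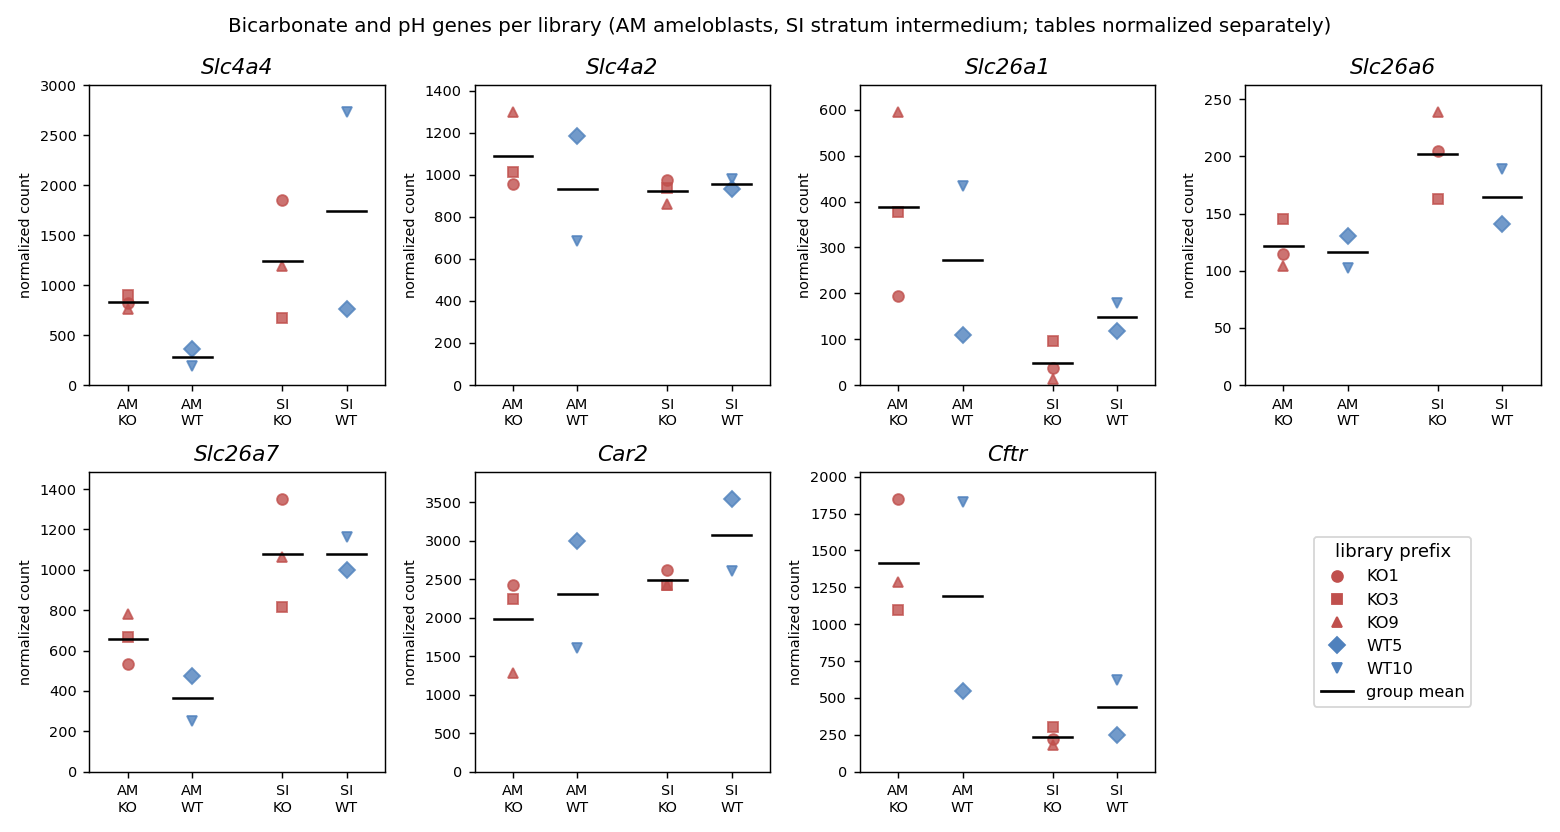
Normalized counts (vertical axes, from 0) of the 7 listed genes in each library, with KO left of WT in ameloblasts (AM) and in stratum intermedium (SI). Symbols give the library prefix and bars the group mean. Slc4a4 and Slc26a7 in ameloblasts have all 3 KO libraries above both WT libraries, and Slc26a1 in stratum intermedium has them all below.

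Slc4a4 (ENSMUSG00000060961, chr5:88886818-89239653, plus strand of GRCm38), which encodes the electrogenic sodium bicarbonate cotransporter, showed the largest separation of KO from WT in ameloblasts among the 7 genes. It stood at 821, 900.1 and 764 normalized counts in KO1, KO3 and KO9 ameloblasts, against 364 and 194 in WT5 and WT10. Every KO library therefore lay above both WT libraries, a pattern that 9.09% of all tested genes shared. The means were 828 ± 68.1 in KO (SD, n = 3) and 279 ± 120 in WT (SD, n = 2), a log2 difference of 1.63 (SE 0.35, 95% interval 0.81 to 2.45), or 3.10-fold. The unadjusted limma p was 0.00218, rank 10 among all genes, and the adjusted p was 0.989. The exact two-sided permutation p over libraries was 0.1, the smallest that 3 against 2 libraries allow. The log2 difference was 1.18 without WT10 and 2.08 without WT5.

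In stratum intermedium, Slc4a4 did not separate the genotypes. It stood at 1852, 669 and 1196 in KO1, KO3 and KO9, against 757 and 2730.2 in WT5 and WT10. The highest and the second lowest of the 5 values were both WT, and the groups overlapped. The log2 difference was -0.33 (SE 0.60, 95% interval -1.75 to 1.08, adjusted p = 1.0 in limma), and it was 0.59 without WT10 and -1.26 without WT5. Between the layers the KO minus WT difference varied by 1.97 on the log2 scale (SE 0.82, 95% interval 0.04 to 3.89), with an unadjusted limma p of 0.0462 and an adjusted p of 0.836. That value uses the same libraries as the single-layer tests, and it was 0.59 without prefix WT10 and 3.34 without prefix WT5.

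Markers of the stratum intermedium and its later form, the papillary layer, were summed and set beside Slc4a4 in each library. The list was Alpl, Notch1, Jag1, Hes1, Krt17, Dsc3, Nectin1 and Cldn10. Of these, Cldn10 was left out here because it was the gene labelled as knocked out. The other 7 markers, all listed, made up 0.174%, 0.190% and 0.135% of the KO1, KO3 and KO9 ameloblast libraries, against 0.0958% and 0.0835% in WT5 and WT10. In stratum intermedium they made up 0.397%, 0.164% and 0.178% of KO1, KO3 and KO9, against 0.145% and 0.370% of WT5 and WT10. The ameloblast libraries fell in the same order by Slc4a4 as by this share, and in stratum intermedium the 2 libraries with the highest share, KO1 and WT10, also had the 2 highest Slc4a4 values. None of these markers was at 0 in any library. Every KO ameloblast share stayed above both WT shares when any 1 of the 7 markers was left out, although the order within genotypes changed without Krt17 or Alpl. Taken singly, 3 of the 7 markers (Jag1, Krt17 and Dsc3) had every KO ameloblast value above both WT values. Over all tested genes that share was 9.09%. Alpl, Notch1, Hes1 and Nectin1 overlapped between genotypes in ameloblasts. Alpl and Krt17 had the largest values in every library, so they made up most of the summed share. The part of these markers in the Slc4a4 difference was not tested. The summed maturation-stage share separated the genotypes through Cnnm4 alone. Without it the share was 0.0198%, 0.0165% and 0.00811% in KO1, KO3 and KO9 ameloblasts against 0.0121% and 0.0108% in WT5 and WT10, and the groups overlapped. In bulk RNA, fewer cells of a type and less RNA per cell cannot be told apart.

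**Figure D2:**
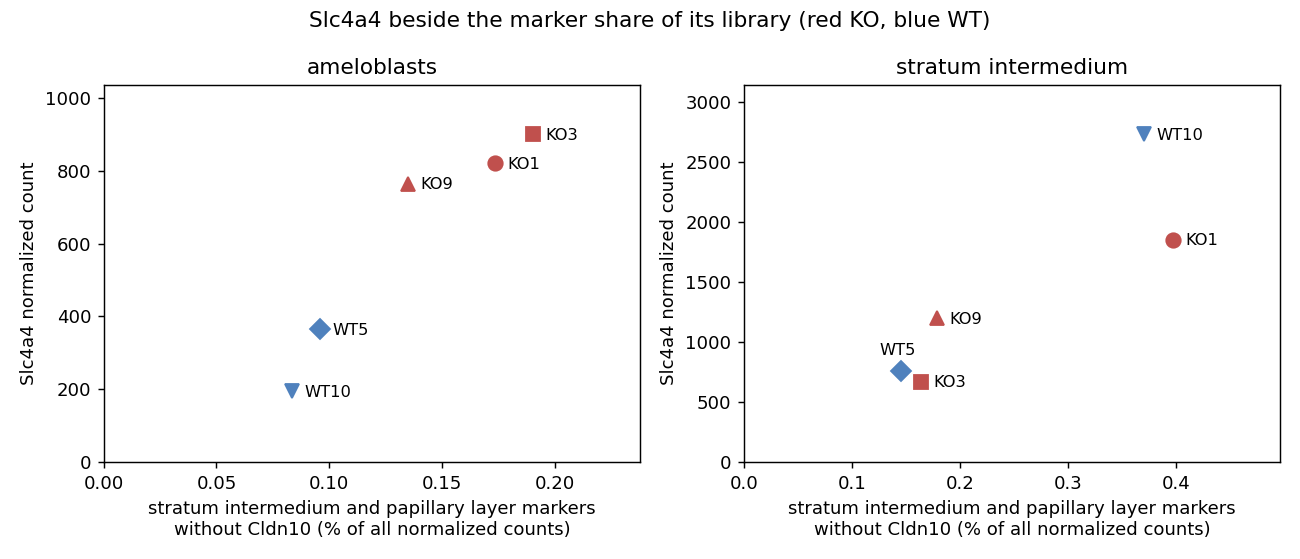
Slc4a4 normalized count (vertical axis) against the summed share of 7 stratum intermedium and papillary layer markers (horizontal axis, percent of all normalized counts) in each library, KO in red and WT in blue. In ameloblasts both values are lowest in WT10 and WT5. In stratum intermedium WT10 and KO1 stand apart from the other 3 libraries on both axes.

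The genes whose profile over the 10 libraries was most like that of Slc4a4 were Enpp2 and Nectin4. Likeness was the root mean square difference of log2 values centred within each table, and it was 0.25 and 0.26 where the median over 15566 genes was 0.92. Enpp2 encodes autotaxin, which makes lysophosphatidic acid, and averaged 10398 in KO and 2379 in WT ameloblasts. Nectin4, an adhesion molecule of epithelial junctions, averaged 1364 in KO and 381 in WT ameloblasts. Neither passed the adjusted threshold (adjusted p = 0.989 for both in limma).

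Slc26a7 (ENSMUSG00000040569, chr4:14502430-14621805, minus strand), an anion exchanger gene known from the acid-secreting cells of kidney and stomach, was the other gene with KO above WT in ameloblasts. It stood at 532, 666 and 782 in KO1, KO3 and KO9, against 476 and 254 in WT5 and WT10. The gap between the lowest KO and the highest WT library was small beside the spread within either group. The means were 659.8 ± 125 in KO (SD, n = 3) and 365 ± 157 in WT (SD, n = 2), and their log2 difference was 0.91 (SE 0.37, 95% interval 0.03 to 1.78, unadjusted p = 0.0440, adjusted p = 0.989 in limma). It was 0.45 without WT10, with an unadjusted p of 0.248 in limma. The papillary layer marker share given above lay higher in these KO libraries too. Among the KO libraries the order differed, as KO9 had the highest Slc26a7 value and the lowest share (0.135%). The part of these markers was not tested. An unadjusted p under 0.05 with a higher KO value was found for 2.25% of all genes.

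In stratum intermedium Slc26a7 stood at 1351, 814 and 1064 in KO1, KO3 and KO9, against 1001 and 1160.4 in WT5 and WT10. The WT libraries lay inside the KO range, and the log2 difference was -0.03 (SE 0.28, 95% interval -0.68 to 0.62, adjusted p = 1.0 in limma). The difference between layers was 0.94 (SE 0.47, 95% interval -0.18 to 2.05, adjusted p = 0.836 in limma). It was 0.38 without prefix WT10 and 1.498 without prefix WT5, with unadjusted p-values of 0.473 and 0.0192 in limma. Its profile was nearest to those of Nfx1, which encodes a zinc finger transcription regulator, and Aco1, the iron regulatory form of aconitase, with root mean square differences of 0.17 and 0.18 against a median of 0.60.

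Slc26a1 (ENSMUSG00000046959, chr5:108669878-108675569, minus strand), a transporter of sulfate and oxalate that can also exchange bicarbonate, varied most between libraries. In ameloblasts it stood at 194, 378 and 595 in KO1, KO3 and KO9, against 110 and 435 in WT5 and WT10. The groups overlapped, with a log2 difference of 0.69 (SE 0.70, 95% interval -0.97 to 2.34, adjusted p = 0.989 in limma). In stratum intermedium it stood at 37.4, 95.8 and 12.6 in KO1, KO3 and KO9, against 117 and 178 in WT5 and WT10. All 3 KO libraries lay below both WT libraries there, as for 7.44% of all tested genes. The means were 48.6 ± 42.7 in KO (SD, n = 3) and 148 ± 43.4 in WT (SD, n = 2), a log2 difference of -1.98 (SE 0.92, 95% interval -4.13 to 0.17, unadjusted p = 0.0661, adjusted p = 1.0 in limma). The exact two-sided permutation p on the log2 scale was 0.2. Without KO9, the library at 12.6, the log2 difference was -1.25.

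The KO minus WT difference of Slc26a1 was 2.66 higher in ameloblasts than in stratum intermedium on the log2 scale (SE 1.13, 95% interval 0.01 to 5.32, unadjusted p = 0.0494, adjusted p = 0.836 in limma). It was 1.56 without prefix KO9. Slc26a1 lies within the span of Idua on the other strand, and the 2 genes share 141 exon bases, so reads could be shared if strand was not used in counting. Idua, a lysosomal enzyme gene, stood at 472, 285 and 467 in KO1, KO3 and KO9 ameloblasts against 257 and 326 in WT5 and WT10. In stratum intermedium Idua stood at 283, 253 and 244 in KO1, KO3 and KO9 against 421 and 207 in WT5 and WT10, and its groups overlapped in both layers. The genes nearest in profile to Slc26a1 were C330011M18Rik and Gm37570, at 0.46 and 0.51 where the median was 1.22.

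Cftr (ENSMUSG00000041301, chr6:18170687-18322768, plus strand), the chloride and bicarbonate channel, was the one gene of the 7 with a higher value in ameloblasts in every prefix. In ameloblasts it stood at 1849, 1097 and 1289 in KO1, KO3 and KO9, against 549.6 and 1831 in WT5 and WT10. The 2 WT values bracketed all but 1 of the KO values, with a log2 difference of 0.46 (SE 0.51, 95% interval -0.76 to 1.67, adjusted p = 0.989 in limma). In stratum intermedium it stood at 224, 307 and 180.1 in KO1, KO3 and KO9, against 251 and 625 in WT5 and WT10. The groups overlapped through KO3 and WT5, with a log2 difference of -0.77 (SE 0.48, 95% interval -1.91 to 0.36, adjusted p = 1.0 in limma). It was -0.12 without WT10 and -1.43 without WT5.

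Within each prefix the ameloblast value of Cftr exceeded the stratum intermedium value, by 3.04, 1.84 and 2.83 on the log2 scale in KO1, KO3 and KO9 and by 1.13 and 1.55 in WT5 and WT10. The median over 15625 genes lay between -0.17 and -0.11 in the 5 prefixes, which shows the offset between the separately normalized tables. All 3 KO prefixes had a larger layer gap than both WT prefixes, a pattern that 10.9% of all genes shared (11.5% had the reverse) and that 2 of the 7 genes showed, Cftr and Slc26a1. The difference of these gaps was 1.23 (SE 0.44, 95% interval 0.19 to 2.27, unadjusted p = 0.0264, adjusted p = 0.836 in limma), the smallest unadjusted p of the 7 genes in that test. Leaving out each prefix in turn, it ran from 0.995 without KO1 to 1.60 without KO3, and the unadjusted limma p ran from 0.00777 without KO3 to 0.107 without WT5. With array weights it was 0.93, with an unadjusted p of 0.117. Secretory ameloblast markers made up 9.11%, 3.79% and 2.17% of the KO1, KO3 and KO9 ameloblast libraries, against 2.65% and 4.67% of WT5 and WT10. This ameloblast share was highest in KO1, which had the largest gap, and lowest in KO9, where the gap was 2.83. In stratum intermedium these markers made up 0.768%, 0.455% and 0.119% of KO1, KO3 and KO9, against 0.938% and 0.474% of WT5 and WT10. The share in that layer was also lowest in KO9, and it was highest in WT5, which had the smallest gap. The part of these markers in the Cftr gap was not tested. The genes nearest to Cftr in profile were Gm6505 and Cdk18, at 0.21 and 0.22 where the median was 0.76.

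Slc4a2 (ENSMUSG00000028962, chr5:24423837-24440950, plus strand), the widely expressed chloride and bicarbonate exchanger that osteoclasts also use, differed little. In ameloblasts it stood at 955, 1011 and 1297 in KO1, KO3 and KO9, against 1182 and 685 in WT5 and WT10. In stratum intermedium it stood at 974.6, 938 and 861 in KO1, KO3 and KO9, against 932 and 980.1 in WT5 and WT10. The groups overlapped in both layers. The log2 differences were 0.26 (SE 0.32, 95% interval -0.49 to 1.01, adjusted p = 0.989 in limma) in ameloblasts and -0.05 (SE 0.22, 95% interval -0.56 to 0.47, adjusted p = 1.0) in stratum intermedium. Slc4a2 shares 1141 exon bases with Fastk on the other strand, whose log2 differences were 0.22 and -0.16 in ameloblasts and stratum intermedium. Its nearest genes in profile were Ipo11 and Nipsnap2, at 0.09 and 0.10 where the median was 0.48.

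Slc26a6 (ENSMUSG00000023259, chr9:108853283-108913049, plus strand), an exchanger of chloride for bicarbonate and oxalate, was low in both layers. It stood at 115, 145 and 104 in KO1, KO3 and KO9 ameloblasts, against 130.1 and 103 in WT5 and WT10. In stratum intermedium it stood at 205, 163 and 239 in KO1, KO3 and KO9, against 141 and 189 in WT5 and WT10. The groups overlapped in each layer, with log2 differences of 0.06 (SE 0.45, 95% interval -1.002 to 1.12, adjusted p = 0.997 in limma) and 0.29 (SE 0.41, 95% interval -0.68 to 1.27, adjusted p = 1.0) in ameloblasts and stratum intermedium. Its ameloblast value was below its stratum intermedium value in all 5 prefixes, by less than the offset between tables in WT5. The nearest genes in profile were Tmem126a and Mtarc2, at 0.10 for both where the median was 0.48.

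Car2 (ENSMUSG00000027562, chr3:14886273-14900770, plus strand), the cytosolic carbonic anhydrase, stood at 2427, 2241 and 1286 in KO1, KO3 and KO9 ameloblasts, against 2998 and 1612 in WT5 and WT10. In stratum intermedium it stood at 2618, 2427 and 2432 in KO1, KO3 and KO9, against 3544 and 2605 in WT5 and WT10. WT5 was the highest library in both layers, and the groups overlapped in both, in stratum intermedium only through KO1 and WT10. The log2 differences were -0.20 (SE 0.39, 95% interval -1.12 to 0.71, adjusted p = 0.989 in limma) in ameloblasts and -0.29 (SE 0.21, 95% interval -0.77 to 0.20, adjusted p = 1.0) in stratum intermedium. Without WT5 the stratum intermedium value was -0.06, and without WT10 it was -0.51. Between layers the difference was 0.09 (SE 0.32, 95% interval -0.67 to 0.85).

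Red blood cells and osteoclasts also make Car2, and their markers were present. Red blood cell markers (6 of 8 listed in ameloblasts and 7 of 8 in stratum intermedium) made up 0.0818% to 0.145% of KO and 0.245% to 1.28% of WT ameloblast libraries. In stratum intermedium they made up 0.153% to 0.260% of KO and 0.146% to 0.912% of WT libraries, with WT5 highest in each layer, as for Car2. Osteoclast markers (9 of 9 listed) made up 0.104% to 0.460% of KO and 0.351% to 0.775% of WT ameloblast libraries, and 0.240% to 0.604% of KO and 0.191% to 0.939% of WT stratum intermedium libraries, again with WT5 highest. The KO1 ameloblast library had the lowest share of both lists and the second highest Car2 value. The part of these cells in Car2 or Slc4a2 was not tested. The nearest genes to Car2 in profile were Trp53inp2 and Hdlbp, at 0.14 and 0.16 where the median was 0.55.

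Car6, the secreted carbonic anhydrase known from saliva, was listed in neither table. Each listed gene had at least 10 normalized counts in at least 3 libraries of its table, so a gene seen in the 2 WT libraries alone would not have been listed. Of 7 salivary gland markers, 0 were listed in ameloblasts and 1 in stratum intermedium.

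**Figure D3:**
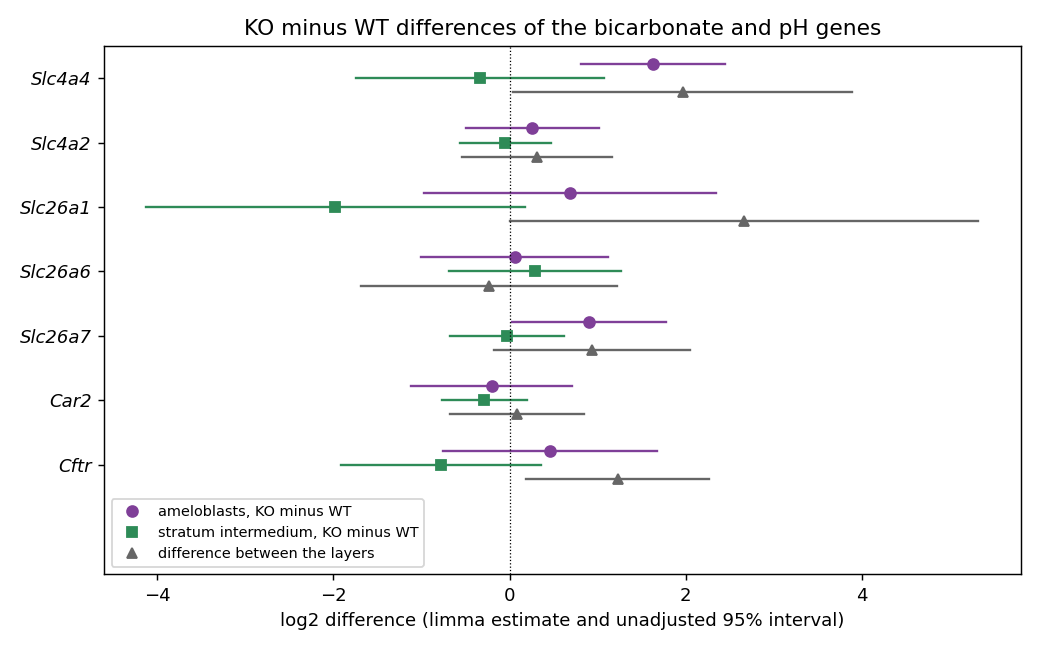
KO minus WT of the 7 listed genes on the log2 scale in ameloblasts (circles) and stratum intermedium (squares), and how far the first exceeded the second (triangles), with unadjusted 95% intervals from limma. The intervals of Slc4a4 and Slc26a7 in ameloblasts and those of Slc4a4, Slc26a1 and Cftr between layers lie above 0, and none of these passed adjustment over all genes.

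Levels were ordered per kilobase of annotated exon within each table. Car2 was highest in both, at 819 per kb in KO and 952 in WT ameloblasts and at 1029 and 1269 in KO and WT stratum intermedium, above 91.3% and 93.1% of listed genes. In ameloblasts Cftr came next (182 per kb in KO, 153 in WT), then Slc4a2 (131 in KO, 112 in WT), Slc26a7 (121 in KO, 67.2 in WT), Slc26a1 (96.1 in KO, 67.2 in WT), Slc4a4 (76.6 in KO, 25.8 in WT) and Slc26a6 (22.5 in KO, 21.5 in WT). In stratum intermedium Slc26a7 came second (198 per kb in KO, 199 in WT), then Slc4a4 (115 in KO, 161 in WT), Slc4a2 (111 in KO, 115 in WT), Cftr (30.5 in KO, 56.4 in WT), Slc26a6 (37.4 in KO, 30.5 in WT) and Slc26a1 (11.997 in KO, 36.5 in WT). Neighbours in this order had overlapping library ranges, with 2 exceptions. The lowest Car2 value (531 per kb in ameloblasts, 1002 in stratum intermedium) exceeded the highest of any other of the 7 genes. In stratum intermedium the lowest Slc4a2 value (103 per kb) exceeded the highest Cftr value (80.4 per kb).

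**Figure D4:**
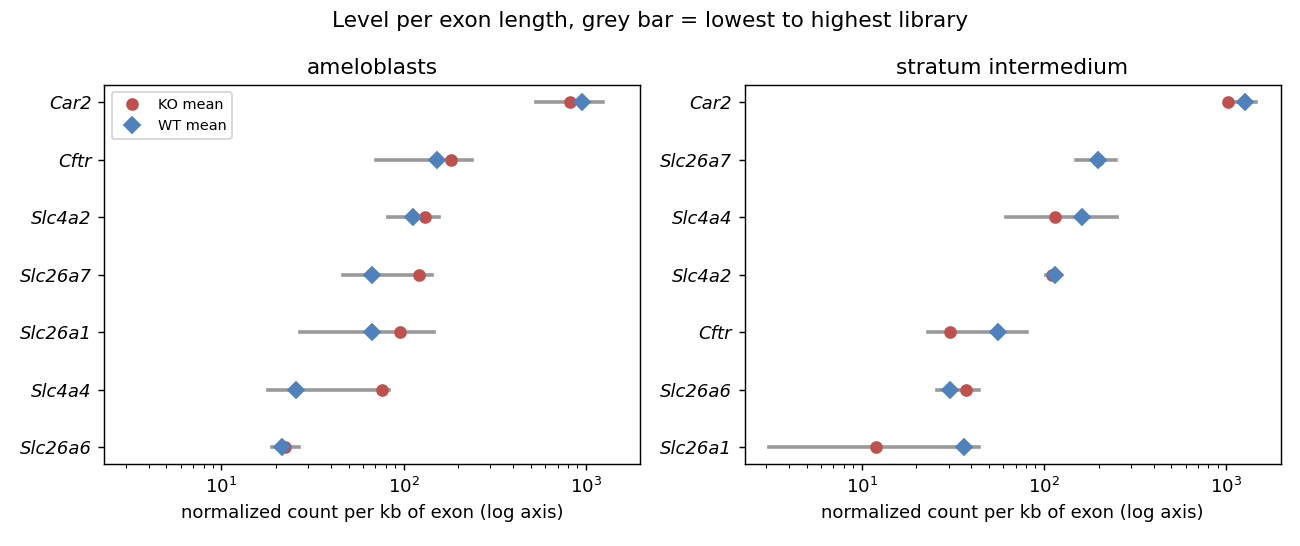
Normalized counts per kilobase of exon (horizontal log axis) of the 7 listed genes in ameloblasts and stratum intermedium, ordered by the mean over 5 libraries. Circles are KO means, diamonds WT means and grey bars run from the lowest to the highest library. Car2 stands highest in both layers, while Cftr is next in ameloblasts and below Slc26a7, Slc4a4 and Slc4a2 in stratum intermedium.

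Other genes of acid and bicarbonate handling were read from 7 lists with 64 genes, of which 47 were tested in ameloblasts and 46 in stratum intermedium. None passed an adjusted p of 0.05 in limma in either layer. In ameloblasts 31 were higher and 16 lower in KO (median log2 0.18), 2 had every KO library above every WT library and 2 below, where the shares over all genes were 9.09% and 9.26%. In stratum intermedium 28 were higher and 18 lower (median log2 0.07), 4 had all KO libraries above and 2 below, where the shares over all genes were 7.76% and 7.44%. An unadjusted p under 0.05 was reached by 2 genes in ameloblasts and 1 in stratum intermedium, where 3.07% and 2.06% of all genes reached it.

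Among 10 other carbonic anhydrases tested in each layer, 7 were higher and 3 lower in KO in each. Car1, the isozyme abundant in red blood cells, stood at 15.2, 12.2 and 5.51 in KO1, KO3 and KO9 ameloblasts against 42.9 and 84.6 in WT5 and WT10 (log2 -2.46, SE 0.93, unadjusted p = 0.0334, adjusted p = 0.989 in limma). All KO values lay below both WT values, as the red blood cell share did in these libraries. Between the WT libraries the order differed, as Car1 was higher in WT10 and the share was higher in WT5 (1.28% against 0.245%). In stratum intermedium Car1 overlapped between genotypes. It was highest there in WT10, at 31.1, where the red blood cell share was lowest, at 0.146%. The part of red blood cells in Car1 was not tested. Car9, a membrane-bound anhydrase induced by hypoxia, stood at 35.0, 54.6 and 50.5 in KO1, KO3 and KO9 ameloblasts against 24.7 and 0 in WT5 and WT10. In stratum intermedium the cytosolic Car7 stood at 45.6, 37.9 and 48.0 in KO1, KO3 and KO9 against 7.80 and 0 in WT5 and WT10 (unadjusted p = 0.0218, adjusted p = 1.0 in limma), and Car7 was not listed in ameloblasts. Car11, a related protein without catalytic activity, averaged 70.4 ± 15.5 in KO (SD, n = 3) and 25.8 ± 20.04 in WT (SD, n = 2) stratum intermedium. Car14 averaged 32.7 ± 29.3 in KO (SD, n = 3) and 12.2 ± 17.2 in WT (SD, n = 2) ameloblasts. These are low values, several of them resting on a WT10 library at 0.

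Car3, a cytosolic isozyme with low activity that is abundant in muscle and fat, was the most abundant anhydrase, at 10784, 10459 and 16173 in KO1, KO3 and KO9 ameloblasts against 20220 and 7071 in WT5 and WT10. Its WT libraries bracketed its KO libraries, and in stratum intermedium it averaged 16810.5 ± 2540 in KO (SD, n = 3) and 16056 ± 14445 in WT (SD, n = 2). Skeletal muscle markers made up 0.0449% to 0.206% of KO and 0.0114% to 0.239% of WT ameloblast libraries and 0.137% to 0.4998% of KO and 0.0796% to 0.224% of WT stratum intermedium libraries, lowest in WT10 in each layer, as Car3 was. The other libraries did not follow the same order. Among KO ameloblast libraries KO9 had the lowest muscle share (0.0449%) and the highest Car3 value. In stratum intermedium Car3 was highest in WT5, at 26270, where the share was 0.224%, against 0.4998% in KO3. The part of muscle in Car3 was not tested.

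Of the other SLC4 genes, 3 of 5 were higher in KO ameloblasts and 4 of 5 in KO stratum intermedium. The sodium bicarbonate cotransporter Slc4a7 stood at 284, 636 and 641 in KO1, KO3 and KO9 stratum intermedium against 896 and 892 in WT5 and WT10, with all KO values below both WT values (log2 -0.87, SE 0.40, unadjusted p = 0.0657, adjusted p = 1.0 in limma). In ameloblasts Slc4a7 overlapped between genotypes, at 494 ± 178 in KO (SD, n = 3) and 603 ± 43.9 in WT (SD, n = 2), and the means that follow carry the same error and numbers. Of the other SLC26 genes, 2 of 3 were higher in KO ameloblasts and 2 of 4 in KO stratum intermedium. The sulfate transporter Slc26a2 averaged 2467 ± 534 in KO and 2096 ± 441 in WT ameloblasts, and 1259 ± 90.4 in KO and 1664 ± 542 in WT stratum intermedium.

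Regulators of bicarbonate transport were split, with 3 of 7 higher in KO ameloblasts and 4 of 7 in KO stratum intermedium. Ahcyl2, a relative of Ahcyl1, stood at 1222, 1442 and 1280 in KO1, KO3 and KO9 ameloblasts against 552 and 1038 in WT5 and WT10. All KO values lay above both WT values (log2 0.79, SE 0.32, unadjusted p = 0.0428, adjusted p = 0.989 in limma). In stratum intermedium Ahcyl2 overlapped, at 1864 ± 1007 in KO and 1596 ± 605 in WT. Ahcyl1 encodes a protein that binds and activates the Slc4a4 protein. It averaged 1839 ± 427 in KO and 1862 ± 13.8 in WT ameloblasts. In stratum intermedium Ahcyl1 averaged 2319 ± 161 in KO and 2199 ± 350.2 in WT. The kinase gene Wnk1 averaged 2310.1 ± 426 in KO and 2253 ± 418 in WT ameloblasts, and 2448 ± 138 in KO and 2598 ± 122 in WT stratum intermedium.

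Sodium-proton exchangers and their partners were higher in KO in 8 of 11 cases in ameloblasts and 6 of 11 in stratum intermedium. Chp2, which binds these exchangers, stood at 21.8, 20.6 and 32.3 in KO1, KO3 and KO9 stratum intermedium against 11.8 and 0 in WT5 and WT10. The exchanger gene Slc9a2 averaged 129 ± 37.6 in KO and 82.8 ± 117 in WT stratum intermedium, where WT10 was at 0. Of 4 genes of lactate and proton transport, 3 were higher in KO in each layer. Bsg, the chaperone of the monocarboxylate transporters, was the most abundant gene of all the lists, at 61859 ± 27956 in KO and 39206 ± 11055 in WT ameloblasts, and at 28313 ± 5973 in KO and 23084 ± 4275 in WT stratum intermedium. Of proton-sensing receptors and channels, 5 of 7 were higher in KO ameloblasts and 2 of 5 in KO stratum intermedium. No p-value of Chp2, Slc9a2 or Bsg was under 0.05 before adjustment in limma in either layer.

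**Figure D5:**
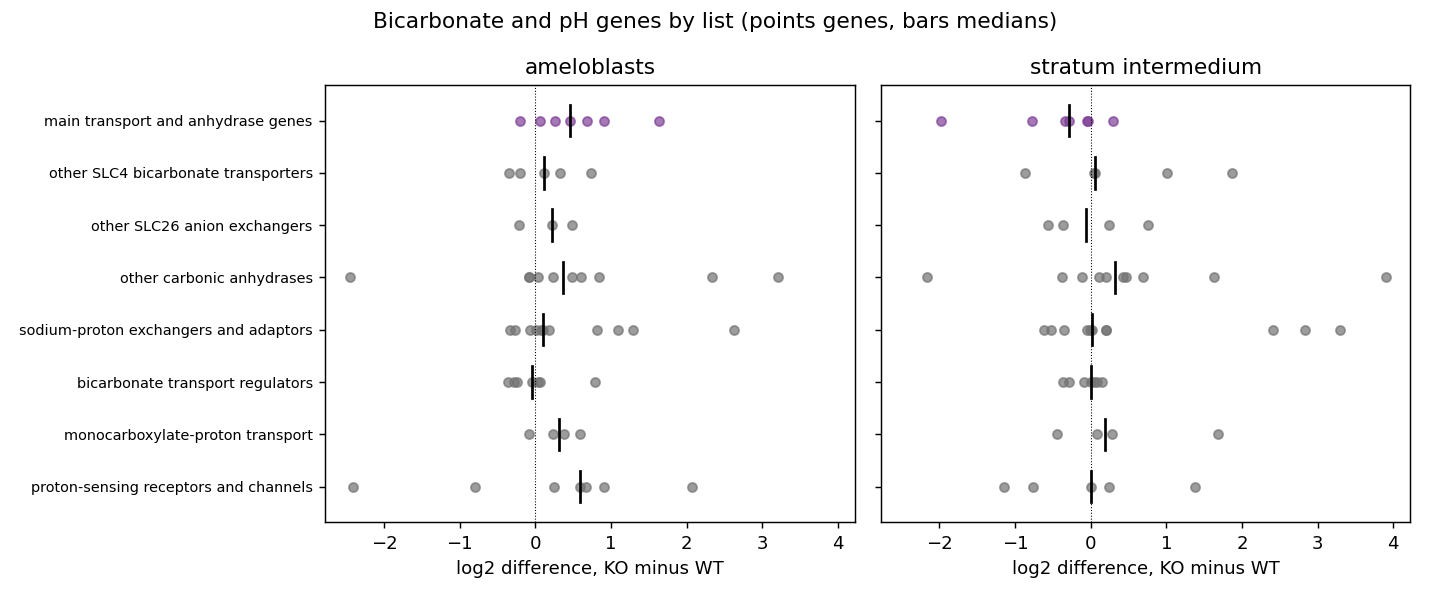
Log2 KO minus WT differences (horizontal axis) of the 7 listed bicarbonate and pH genes (top row) and of the genes in each of the 7 other lists, in ameloblasts and stratum intermedium. Points are genes and bars are medians. The medians of the top row are 0.46 in ameloblasts and -0.29 in stratum intermedium, and the lists' medians run from -0.05 to 0.59 and from -0.06 to 0.32.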

How the data were processed

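RNA was measured in 10 libraries, 5 per layer. Per the labels' protocols, RNA of laser-captured cells was purified on RNeasy Micro columns and sequenced from stranded polyA libraries. The signal values are normalized counts per gene that the authors deposited in 1 table per layer, named as DESeq2 normalized matrices of Ensembl release 101 and marked as without outliers. Per the submitters' processing notes, the build was GRCm38 and the tools were featureCounts, DESeq, STAR 2.5.2b, FastQC and Picard 2.8.1. Whether counting used strand was not stated. At most 36.6% of a library's distinct values under 60 lay within 0.02 of a whole step, so reads could not be recovered, no count test was run and the depth is unknown. Library sums ran from 21006977 to 26856177. Library names in the labels identified every column, leaving 0 unused.

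Each table was tested with limma 3.58.1 (R 4.3.3, trend, two-sided) on log2(value + 1), which understates the change of low genes, over genes with a mean of at least 10. The difference between layers was tested on the ameloblast minus stratum intermedium value of each prefix. The limma fit was tested on simulated data. Named genes were the listed members, the other pathway genes with the 6 smallest p-values or 4 highest means per layer, the 2 most alike genes per member, Cldn10 and overlapping genes. Members and lists were chosen with earlier results of these data known. The marker share without Cldn10, and shares without each marker in turn, were chosen after the data were seen. Positions and exon lengths were from GENCODE M21 (GRCm38), which held 16282 of 16292 and 16627 of 16638 genes. Python 3.11.15 and matplotlib 3.10.9 drew the figures.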

Additional observations from a re-analysis of the deposited data

How the results depend on the processing

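The 7 genes were recomputed in the 3 tests under quantile normalization, a pseudocount of 0.5 or 8, a mean filter of 50 or none, median-ratio rescaling, array weights, robust variance, sex as a covariate, replicate or library group as a block in each layer, and without each library or prefix. Of 322 values, 300 kept direction and 22 reversed. The mean filters and robust variance leave the log2 difference unchanged, so those values could not reverse. Each block drops the KO library that has no WT partner, so it repeats the value found without that library. The count is therefore not one of independent checks. No value passed the adjusted threshold, and no scaling moved the median of all genes by over 0.1. In ameloblasts Slc26a6 was -0.15 with sex as a covariate and -0.078 with the replicate block. In stratum intermedium Slc4a2 was 0.00074 with the replicate block. Between layers Car2 was -0.014 under quantile normalization and -0.45 with sex as a covariate. The replicate-block values equal those without KO3 in ameloblasts and without KO9 in stratum intermedium. With sex as a covariate, KO9 alone is set against WT for every gene. The cause of the Car2 reversal under quantile normalization was not tested. Without single libraries, the ameloblast differences ran from -0.13 to 0.65 for Slc4a2, -0.30 to 1.67 for Slc26a1, -0.11 to 0.23 for Slc26a6, -0.65 to 0.25 for Car2 and -0.41 to 1.32 for Cftr. The stratum intermedium differences ran from -1.26 to 0.59 for Slc4a4, -0.089 to 0.00074 for Slc4a2 and -0.21 to 0.15 for Slc26a7. Between layers they ran from -0.12 to 0.74 for Slc4a2, -0.62 to 0.15 for Slc26a6 and -0.14 to 0.35 for Car2. Slc26a1 in stratum intermedium was -3.42 with sex added, a fit that sets KO9 alone against WT, and -1.25 with the replicate block.

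The number of genes past an adjusted p of 0.05 was 0 in each test, and 0 at a threshold of 0.1. Without single libraries it ran from 0 to 1 in ameloblasts (Tcap, without WT5) and from 0 to 2 between layers (Tcap and Depp1, without WT5), both genes named after their values were seen. With 1 WT library left, these fits borrow the spread of the KO libraries for it. At an unadjusted p under 0.05 the number of genes was 498 in ameloblasts (245 to 1490 without single libraries), 340 in stratum intermedium (185 with the replicate block, 236 to 1714 without single libraries) and 802 between layers (477 to 1867). Replicate numbers were not shown to pair libraries: deviations of same-numbered KO and WT libraries correlated at 0.09 and -0.12 in ameloblasts and -0.19 and -0.13 in stratum intermedium, and the replicate block gave 0 genes in both. Library names also carry a group number whose meaning the labels do not give: KO3 and WT5 share 1, KO9 and WT10 share 2, and KO1 stands alone in 3. Deviations within these pairs correlated at 0.27 and 0.12 in ameloblasts and 0.19 and 0.0059 in stratum intermedium. The deviations of 2 WT libraries are equal and opposite, so a KO library correlates with them at the same value with opposite signs. The 0.12 and 0.19 here therefore restate the -0.12 and -0.19 above. These correlations cannot decide between the 2 ways of pairing. With this number as a block, 0 genes passed in either layer. Slc4a4 was then 1.64 in ameloblasts and -0.68 in stratum intermedium, the same values as without KO1, which has no WT partner. With 2 WT libraries and no read counts, small differences could not be resolved.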
